A study of Mus musculus with 2 samples.

Results

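The genes described are Lrp2, Cubn, Amn and Dab2, 4 of the 32285 genes counted, matched by their symbols in both matrices. The group was chosen by the ratio of knockout to control in sums over all cells, where Lrp2 had been among the largest. Its size over all cells is therefore a description and supports nothing. The question was whether Lrp2 was also higher in the knockout library outside endoderm-like cells, and whether its 3 partners followed.

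Both libraries came from the mouse embryonic stem cell line D3 on day 6 of cardiomyocyte differentiation, which the labels place at the cardiovascular progenitor stage. 1 library was the wild-type D3 control and 1 was a Zbtb16 knockout. The product of Zbtb16 is a transcription factor with zinc fingers. The labels give neither the deleted part of the gene nor the number of clones, so the knockout may be 1 clone.

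With 1 library per group there is no replicate check and no test. Every interval below is a 95% exact counting interval, which covers counting error only and not the spread between cultures. A difference between the libraries cannot be told apart from a difference between 2 cultures or 2 library preparations.

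LRP2, or megalin, is a very large endocytic receptor of the LDL receptor family with a single membrane span. CUBN, or cubilin, has no membrane span and depends on AMN, or amnionless, to reach the cell surface, where the pair forms the cubam complex and can be internalised together with megalin. DAB2 is a clathrin adaptor that binds the cytoplasmic tails of LDL receptor family members. All 4 proteins work together in the kidney proximal tubule and in the visceral endoderm, where they take up lipoproteins, vitamin carriers and other ligands. LRP2 also acts without cubilin in other embryonic tissues, such as the neural tube, where it binds SHH, and the second heart field.

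The sequences before the transcription starts are shown as a reference for the 4 genes. Each line holds the 250 bases before a start in RefSeq on build GRCm38.p6, written 5′ to 3′ on the gene's strand, with CpG dinucleotides in capitals. All 4 genes matched an entry, and Dab2 had 2 starts. The end of each entry's sequence was also sought in transcripts of the same gene. It was found for every start except that of Cubn, so the Cubn start was not matched to a transcript. The counts were made on GRCm39, so the coordinates serve only to identify the sequence.
Lrp2, chr2:69586030-69586279, minus strand: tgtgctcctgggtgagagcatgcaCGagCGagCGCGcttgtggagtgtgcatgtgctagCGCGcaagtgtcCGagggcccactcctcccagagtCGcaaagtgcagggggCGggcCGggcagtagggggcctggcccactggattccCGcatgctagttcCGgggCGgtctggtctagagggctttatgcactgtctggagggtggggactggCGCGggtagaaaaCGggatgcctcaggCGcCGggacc
Cubn, chr2:13491877-13492126, minus strand: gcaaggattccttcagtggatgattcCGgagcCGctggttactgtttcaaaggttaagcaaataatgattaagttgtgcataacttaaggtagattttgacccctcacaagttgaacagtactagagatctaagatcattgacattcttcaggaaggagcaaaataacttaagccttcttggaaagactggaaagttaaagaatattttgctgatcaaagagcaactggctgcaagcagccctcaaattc
Amn, chr12:111270846-111271095, plus strand: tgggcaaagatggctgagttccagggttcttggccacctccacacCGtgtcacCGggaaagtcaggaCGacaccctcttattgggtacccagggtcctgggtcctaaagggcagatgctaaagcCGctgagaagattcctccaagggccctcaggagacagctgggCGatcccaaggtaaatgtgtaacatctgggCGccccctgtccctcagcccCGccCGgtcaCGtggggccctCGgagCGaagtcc
Dab2 start 1, chr15:6299539-6299788, plus strand: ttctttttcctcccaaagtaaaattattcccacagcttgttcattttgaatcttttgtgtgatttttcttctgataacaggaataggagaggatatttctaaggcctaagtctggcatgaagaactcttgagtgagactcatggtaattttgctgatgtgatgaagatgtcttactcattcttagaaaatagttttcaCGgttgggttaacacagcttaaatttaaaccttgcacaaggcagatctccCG
Dab2 start 2, chr15:6386498-6386747, plus strand: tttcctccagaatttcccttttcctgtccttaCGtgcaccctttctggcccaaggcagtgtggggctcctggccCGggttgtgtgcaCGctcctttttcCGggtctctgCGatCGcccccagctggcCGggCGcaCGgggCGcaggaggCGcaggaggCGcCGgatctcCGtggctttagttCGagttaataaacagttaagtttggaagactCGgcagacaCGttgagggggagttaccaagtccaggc
The Lrp2 window holds 18 CpG and 66.4% GC, against medians of 6 CpG and 52.4% GC over 32851 RefSeq windows of the same length. As many CpG stood in 21.7% of those windows. The Cubn window holds 2 CpG and 39.6% GC, and Amn lies between them with 11 CpG and 61.2% GC. The Dab2 starts differ from each other, with 2 CpG at the first and 17 at the second. Both strands were searched for 5 letter strings. The GC box GGGCGG, present in 32.7% of windows, occurred 2 times at Lrp2, 1 time at Amn and in neither other gene. The HNF1 half-site GTTAAT, present in 6.43% of windows, occurred 1 time, at the second Dab2 start. The GATA string AGATAA (9.99% of windows), the HNF4 string CAAAGTCCA (0.384%) and the FOXA string TGTTTAC (3.17%) occurred in none of the 5 windows. A match or its lack describes the letters of these windows only.

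Cells were barcodes with at least 15000 unique molecular identifiers (UMIs, each counted as 1 RNA molecule) and at most 10% of UMIs from mitochondrially encoded genes. This left 6354 control and 9449 knockout cells, with median depths of 37324 (control) and 30513 UMIs (knockout), and the libraries shared 16 cell barcodes. The targeted gene, Zbtb16, stood at 22.2 UMIs per 1000000 UMIs counted (CPM) in the control and 0.994 in the knockout over all cells. Because the deleted part is not given, it is not known whether the counted end of the transcript lies in it. Clusters were made on both libraries together without the 4 genes or Zbtb16, and most held cells of almost 1 library only, so such a cluster may stand for its library rather than a cell type. Cardiomyocyte-like clusters held 3589 control and 13 knockout cells.

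The endoderm-like class was 1 cluster of 117 control cells, or 1.84% (1.53 to 2.20), and 208 knockout cells, or 2.20% (1.91 to 2.52). Its name came from 6 genes of a list of endoderm markers, Ttr among them. The values below use the same list, so they describe the cluster and do not check its name. Of 37 endoderm markers, 23 were both at 5 CPM or more inside the cluster and at least 10-fold higher there than outside it, in each library. Ttr, the thyroxine carrier transthyretin, stood at 3294 CPM inside and 3.14 outside in the control, and at 1933 and 1.84 in the knockout. Cer1, an anterior visceral endoderm marker, was at 0 in the cluster in both libraries. Zbtb16 itself stood at 33.8 CPM in control and 10.3 in knockout endoderm-like cells, so more of its RNA was counted there than in the knockout's other cells, at 0.667.

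Lrp2, the large receptor, was higher in the knockout library both outside and inside the endoderm-like cluster. Outside it the level was 17.7 CPM (17.2 to 18.2, 5022 UMIs) in 6237 control cells and 96.2 CPM (95.2 to 97.3, 31891 UMIs) in 9241 knockout cells. The ratio of knockout to control was 5.44 (5.28 to 5.60), or 2.38 on the log2 scale with 1 CPM added to each level. These cells hold nearly all Lrp2 UMIs, so this value largely repeats the contrast that chose the gene and is a description. Over all cells, where the gene had been chosen, the levels were 17.5 and 94.9 CPM. Endoderm-like cells held only 2.07% of the control's Lrp2 UMIs and 2.0% of the knockout's, and the rest lay outside them. Endoderm-like, endothelial-like and pluripotent-like cells are smaller sets, whose values come from the same 2 libraries.

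Within endoderm-like cells Lrp2 stood at 12.2 CPM (9.95 to 14.7, 106 UMIs) in the control and 56.0 CPM (51.8 to 60.5, 650 UMIs) in the knockout. That is a ratio of 4.61 (3.75 to 5.71). The 10% of these cells with the most Lrp2, 12 control and 21 knockout, held 47.2% and 62% of those UMIs. A single knockout cell held up to 95 UMIs. The counting interval does not cover such unevenness between cells. The interval of the endoderm-like ratio includes the 5.44 found outside. It lies above the 3.29 (3.19 to 3.40) found outside once cardiomyocyte-like cells were also left out. Whether the ratios differ between these sets was not tested. In each library the endoderm-like level of Lrp2 was below the level outside.

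The adaptor Dab2 was also higher in the knockout library, by less. Outside endoderm-like cells it stood at 69.4 CPM (68.5 to 70.4) in the control and 115 CPM (114 to 116) in the knockout, a ratio of 1.66 (1.63 to 1.69). In endoderm-like cells the levels were 421 CPM (407 to 434) and 828 CPM (812 to 845), a ratio of 1.97 (1.89 to 2.05). Unlike Lrp2, Dab2 was higher inside the endoderm-like cluster than outside it in both libraries, and that cluster held 15.7% of its control and 20.1% of its knockout UMIs.

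Cubn and Amn, the 2 parts of the cubam complex, did not follow Lrp2 outside endoderm-like cells. Cubn stood there at 0.299 CPM (85 UMIs) in the control and 0.266 CPM (88 UMIs) in the knockout, a ratio of 0.887 (0.651 to 1.21). Amn stood at 0.215 CPM (61 UMIs) and 0.199 CPM (66 UMIs), a ratio of 0.927 (0.644 to 1.33). Both intervals include 1, and both lie below the Lrp2 ratio. They do not show that the levels were equal.

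In endoderm-like cells both partners were higher in the knockout library. Cubn stood at 23.7 CPM (20.6 to 27.2, 207 UMIs) in the control and 41.4 CPM (37.8 to 45.2, 480 UMIs) in the knockout, a ratio of 1.74 (1.48 to 2.06). Amn stood at 11.2 CPM (9.12 to 13.7, 98 UMIs) and 21.1 CPM (18.6 to 23.9, 245 UMIs), a ratio of 1.88 (1.48 to 2.40). These UMIs lay in few cells. The 12 control and 21 knockout endoderm-like cells with the most Amn held 91.8% and 72.7% of its UMIs there. For Cubn the same numbers of cells held 65.7% and 72.3%. The counting intervals do not cover such unevenness between cells. The median mitochondrial share of these cells also differed, at 4.85% in the control and 6.04% in the knockout. With a limit of 5% on that share, 74 control and 28 knockout endoderm-like cells remained, and the log2 ratios were 0.11 for Cubn and 0.33 for Amn in place of 0.78 and 0.85. Lrp2 under the same limit stood at 11.0 and 60.9 CPM and Dab2 at 371 and 766 CPM. The part of cell quality in the Cubn and Amn ratios was not tested.

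**Figure D1:**
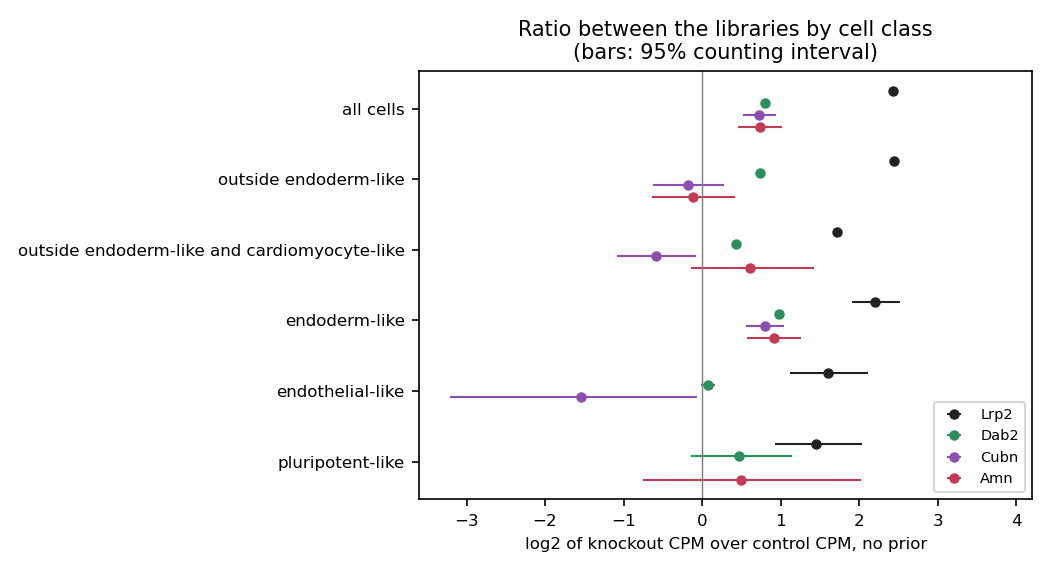
Log2 of the knockout level over the control level (CPM, nothing added) for each gene in 6 sets of cells, with bars for 95% counting intervals; Cubn in pluripotent-like cells (0 and 2 UMIs) and Amn in endothelial-like cells (1 and 3 UMIs) are not drawn. Lrp2 lies right of 0 in every set, while Cubn lies right of 0 in endoderm-like cells and over all cells only.

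How often such ratios occur sets the scale. Of 10260 genes at 5 CPM or more in either library outside endoderm-like cells, 3.81% were higher in the knockout by 2-fold or more and 2.94% were lower by as much. Lrp2 was the only 1 of the 4 genes past 2-fold there, ranking 17 from the top, while Dab2 ranked 889 and Cubn and Amn lay below 5 CPM. Over all cells 3.7% of 10289 genes lay past 2-fold upward and 2.91% downward. Lrp2 ranked 16 in that contrast, which chose it. Nothing is read from that rank or from the near copy of it outside endoderm-like cells. In endoderm-like cells 4.03% of 10223 genes lay past 2-fold upward, and all 4 genes passed 5 CPM. Lrp2 ranked 15 there, Dab2 461, Amn 664 and Cubn 848, so the 3 partners stayed under 2-fold.

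The control library outside the endoderm-like cluster was mostly cardiomyocyte-like, with a summed level of 17 cardiomyocyte markers of 2686 CPM against 219 in the knockout. Cardiomyocyte-like control cells were low in Lrp2, at 5.54 CPM. Without the cardiomyocyte-like clusters, a choice made after the data were seen, Lrp2 stood at 29.3 CPM in 2648 control cells and 96.3 in 9228 knockout cells, a ratio of 3.29 (3.19 to 3.40). In that set 2.88% of 10129 genes lay past 2-fold upward, and Lrp2 ranked 39. Dab2 then stood at 85.7 and 115 CPM, a ratio of 1.35 (1.32 to 1.37), and ranked 1951. Both ratios were thus smaller than with cardiomyocyte-like cells included, and that of Lrp2 remained the larger.

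Cubn in the same set stood at 0.399 CPM (58 UMIs) in the control and 0.266 CPM (88 UMIs) in the knockout, a ratio of 0.666 (0.473 to 0.944). Amn stood at 0.131 CPM (19 UMIs) and 0.199 CPM (66 UMIs), with an interval of the ratio from 0.904 to 2.69. Free RNA, the content of barcodes of 10 to 100 UMIs, held Cubn at 1.87 and 2.41 CPM (10 UMIs each). Free RNA thus lay above both levels of Cubn in these cells, and its part in those levels was not tested. It held Amn at 0.561 CPM (0.116 to 1.64, 3 UMIs) in the control and 1.20 CPM (0.391 to 2.81, 5 UMIs) in the knockout, and the control interval covers the 0.131 CPM of the cells. Of the Amn UMIs counted in these cells, 6 of 19 in the control and 39 of 66 in the knockout came from pluripotent-like cells. Free RNA held Lrp2 at 19.3 CPM in the control and 78.4 in the knockout, against 17.5 and 94.9 over cells. The Lrp2 levels of endoderm-like cells, 12.2 and 56.0 CPM, lay below those of free RNA. The part of free RNA in the Lrp2 levels was not tested.

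The endothelial-like and pluripotent-like classes held cells of both libraries, and Lrp2 was higher in the knockout in each. In both classes the Lrp2 levels lay below those of free RNA in the same library, 19.3 CPM in the control and 78.4 in the knockout. The part of free RNA in these ratios was not tested. A finer clustering, at resolution 2, divided endothelial-like cells largely by library. It gave 1 cluster of 10 control and 409 knockout cells and 1 of 268 control and 10 knockout cells. In endothelial-like cells, 274 control and 419 knockout, Lrp2 stood at 2.64 CPM (44 UMIs) and 7.99 CPM (166 UMIs), a ratio of 3.03 (2.16 to 4.33). There 2.76% of 9770 genes lay past 2-fold upward, and Lrp2 ranked 106. Dab2 in those cells stood at 103 and 109 CPM, a ratio of 1.05 (0.986 to 1.12). In pluripotent-like cells, 30 control and 214 knockout, Lrp2 stood at 13.2 CPM and 36.3 CPM, a ratio of 2.74 (1.90 to 4.09), and Dab2 at 10.7 and 14.8 CPM. Endothelial-like cells therefore had Lrp2 well below, and Dab2 near, the level of other knockout cells.

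Across clusters the level of Lrp2 was ordered largely by library. The 4 highest sums were all knockout. Cluster 1 (leading genes Plagl1 and Postn) stood at 129 CPM, cluster 5 (Plagl1, Nnat) at 123, cluster 0 (Postn, Plagl1) at 117, and the mesenchymal-like cluster 2 at 101. Clusters 5 and 0 did not differ beyond their intervals. Clusters 15 (Actc1, Myh7) and 6 (Tac2, Pitx1) of the knockout followed at 74.5 and 57.3 CPM, and cluster 6 overlapped the knockout's endoderm-like cells at 56.0. The highest control sums outside it were cluster 8 (Mest, Airn) at 35.6 CPM and cluster 3 (Mest, Sfrp5) at 32.5, which overlapped each other, and cluster 8 overlapped the knockout's pluripotent-like cells at 36.3.

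Not every knockout cluster was high in Lrp2. Cluster 11, led by the posterior genes Hoxc10 and Cdx2, stood at 20.7 CPM, below both of those control clusters. The knockout's endothelial-like cells at 7.99 CPM and its 32 haematopoietic-like cells at 3.70 CPM (6 UMIs) were lower still. Control cardiomyocyte-like clusters ranged from 1.16 CPM (13 UMIs) in cluster 12, with sarcomere genes such as Myh6 in the lead, to 7.82 in cluster 9. Of 19 neighbouring pairs in the order of 20 sums, the intervals overlapped in 12 for Lrp2.

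Dab2 varied less outside the endoderm-like cluster. After the 2 endoderm-like sums, the next were knockout clusters 0 at 137 CPM, 1 at 130, 2 at 123 and 6 at 115. Control clusters 3 and 8 stood at 86.1 and 81.2 CPM, control cardiomyocyte-like clusters between 38.2 and 56.2, and pluripotent-like cells lowest apart from the haematopoietic-like cells at 3.70. Neighbouring intervals overlapped in 10 of 19 pairs for Dab2.

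Cubn and Amn were set apart by the endoderm-like cluster. It held 70.9% (65.3 to 76.0) of the control's Cubn UMIs and 84.5% (81.3 to 87.4) of the knockout's. For Amn the shares were 61.6% (53.6 to 69.2) and 78.8% (73.8 to 83.2). Outside it, Cubn was highest in control endothelial-like cells, at 0.839 CPM (14 UMIs), against 0.289 CPM (6 UMIs) in the knockout. Neighbouring intervals overlapped in 17 of 19 pairs for each gene. Amn had a second site: pluripotent-like cells, with 3.61 CPM (39 UMIs) in the knockout and 2.56 CPM (6 UMIs) in the control, where Cubn had 2 UMIs and 0. Control cardiomyocyte-like cluster 12 followed at 1.959 CPM (22 UMIs), and every other sum outside the endoderm-like cluster was at or below 0.617.

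**Figure D2:**
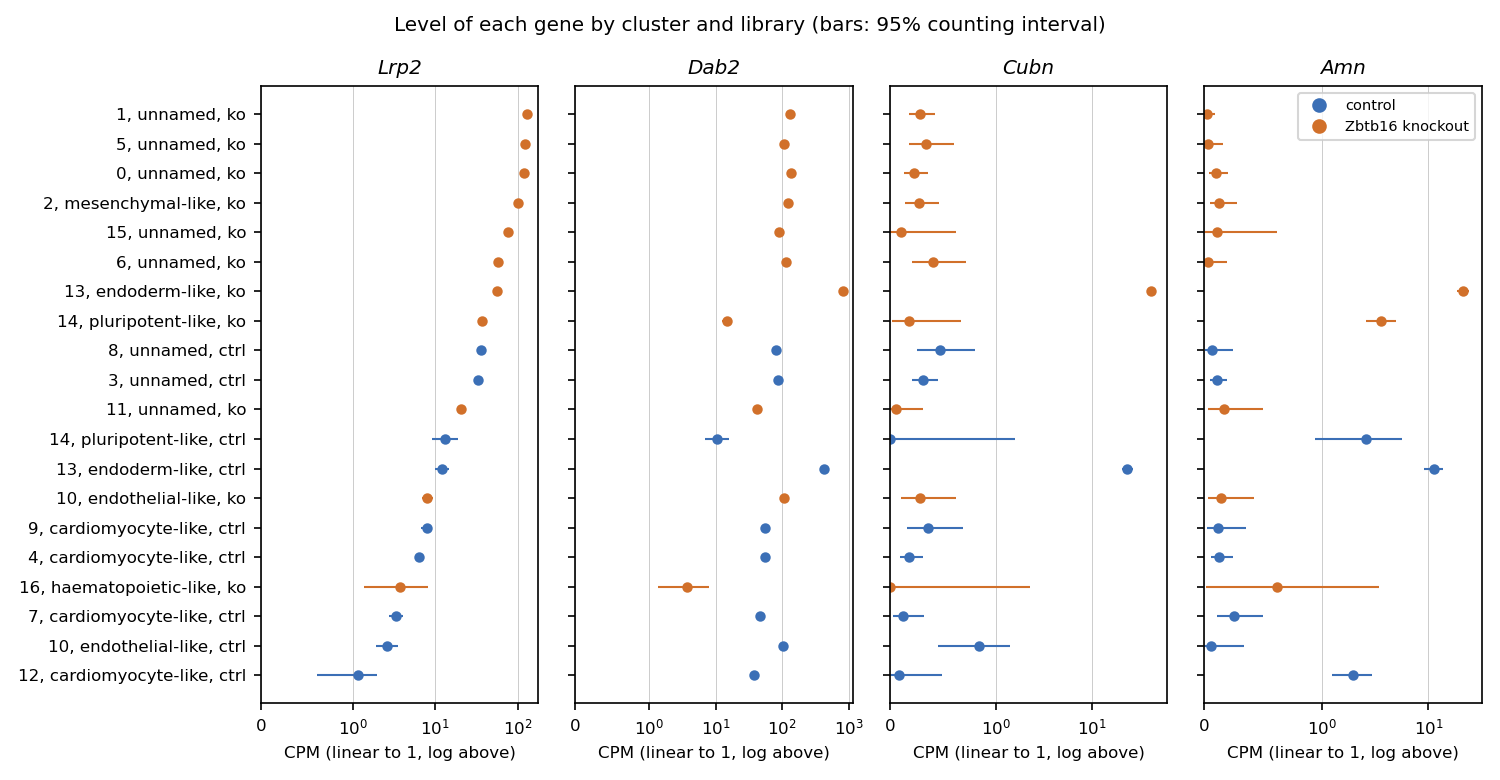
Level of each gene in CPM (linear to 1, log above) in each cluster and library with at least 30 cells, ordered by Lrp2, with 95% counting intervals. Knockout sums fill the upper part of the Lrp2 panel, from 129 CPM downward, while Cubn and Amn are high in the 2 endoderm-like sums.

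Single cells showed how widely Lrp2 was spread. Outside the endoderm-like cluster the level per control cell had a lowest value and a median of 0 and a highest value of 261 CPM, while knockout cells had a lowest value of 0, a median of 67.4 and a highest value of 755. The ranges overlap, and the median knockout cell exceeded the median control cell. At least 3 Lrp2 UMIs were found in 10.7% of control and 45.3% of knockout cells. The 10% of cells with the most Lrp2 held 61.6% of the Lrp2 UMIs of control cells and 38.4% of those of knockout cells, a share that falls as the mean count per cell rises.

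Depth differed between the libraries, so each cell was thinned to 23857 UMIs, leaving out 821 control and 2329 knockout cells outside the endoderm-like cluster. Lrp2 then had a UMI in 23.8% (22.6 to 24.9) of control and 71.8% (70.7 to 72.8) of knockout cells, against 32.4% and 73.8% before thinning. Dab2 had one in 69.5% and 84.6%, against 77.5% and 87.4% before. Cubn had one in 0.757% and 0.651%, and Amn in 0.462% and 0.463%. At the same depth, haematopoietic-like knockout cells, taken because their level was low, had Lrp2 in 9.38% (1.98 to 25.02) of 32 cells and endothelial-like cells in 4.49% (control) and 9.61% (knockout). The control's cardiomyocyte-like cells had Lrp2 in 10.2%, and without cardiomyocyte-like cells the control's share was 38.8%.

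Thinned endoderm-like cells had Lrp2 in 17.7% (11.2 to 26.0) of control and 45.8% (38.7 to 52.9) of knockout cells. Dab2 had a UMI in 82.3% and 94.5% of them. Cubn had one in 22.1% and 27.9%, and Amn in 8.85% and 20.9%. The intervals of the Cubn shares, 14.9 to 30.9 and 21.8 to 34.6, overlap. Beside these, control cardiomyocyte-like cells had Cubn in 0.422% and Amn in 0.597% of cells at the same depth.

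**Figure D3:**
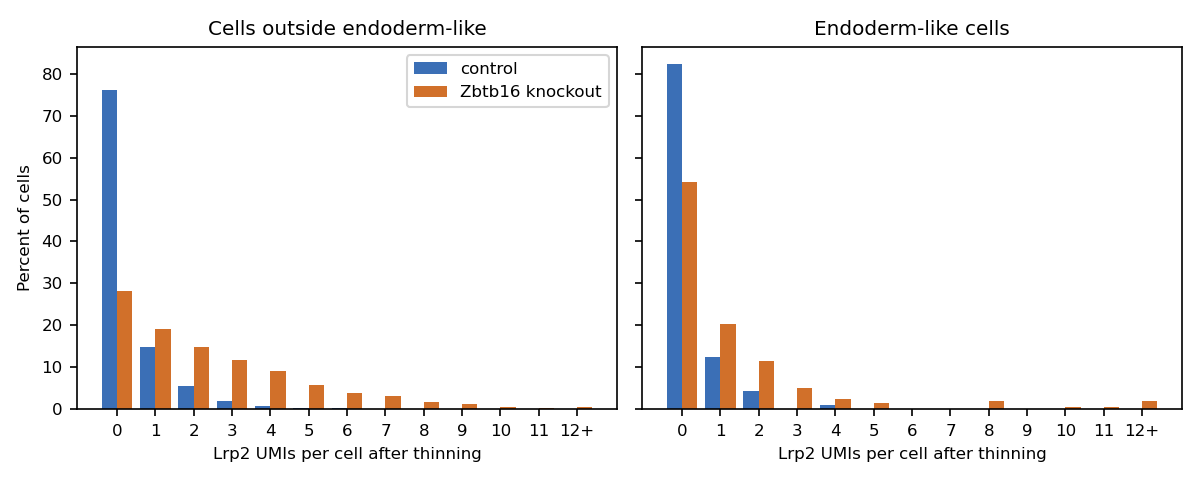
Percent of cells with each number of Lrp2 UMIs after thinning to 23857 UMIs, outside (left) and inside (right) the endoderm-like cluster, for the control and the knockout library. Outside it, 76.2% of control and 28.2% of knockout cells have none.

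In the thinned cells Dab2 was found more often where Lrp2 was. Outside the endoderm-like cluster, cells with a Lrp2 UMI had Dab2 in 80.2% (77.9 to 82.3) of control cells, against 66.2% (64.7 to 67.6) of those without. In the knockout the shares were 89.7% (88.8 to 90.5) and 71.6% (69.5 to 73.5). With cardiomyocyte-like cells also left out, the control shares lay closer together, at 83.6% (81.1 to 85.8) and 75.4% (73.2 to 77.6). Those of the knockout stayed at 89.7% and 71.6%. The part of the mix of cell types in the joint detections was not tested. Cubn was found in 0.544% of control and 0.706% of knockout cells with Lrp2, and in 0.823% and 0.513% of cells without it. Amn was found less often with Lrp2 in the knockout, in 0.282% (0.154 to 0.473) of cells with it and 0.923% (0.548 to 1.45) of those without. The control shares of Amn were 0.155% and 0.557%, whose intervals overlap. Lrp2 together with Cubn or Amn was found in 9 of 5416 control cells and 49 of 6912 knockout cells, or 0.166% and 0.709%. Lrp2, with or without a partner, was found in 1287 of those control and 4961 of those knockout cells. Cubn was found in 41 and 45 of them, and Amn in 25 and 32. A joint share rises with the share of Lrp2 itself, so no rise in joint expression is read from these counts.

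Inside the endoderm-like cluster the members of the cubam complex were found together. Knockout cells with a Cubn UMI had Amn in 51.8% (38.0 to 65.3), against 8.97% (4.86 to 14.8) of those without, and control cells in 28.0% (12.1 to 49.4) against 3.41% (0.709 to 9.64). Knockout cells with Lrp2 had Cubn in 39.1% (29.1 to 49.9), against 18.3% (11.6 to 26.9) of those without. In the control the shares were 35% of 20 cells and 19.4% of 93, whose intervals overlap. Cells with a Cubn or Amn UMI also had a higher summed level of the 37 endoderm markers, at 19940 against 12882 CPM in the control and 16598 against 12179 in the knockout, in unthinned cells that were also deeper. The part of endoderm content and depth in these joint detections was not tested.

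Markers of other cell types moved with Lrp2 outside the endoderm-like cluster. The 37 endoderm markers summed to 1836 CPM in the control and 2345 in the knockout, most of it from Krt8, Krt18 and Gpc3, which were broadly present. Cells with a Lrp2 UMI had 2342 CPM of them in the control and 2521 in the knockout, and cells without had 1463 and 1736. The 17 mesenchymal markers summed to 985 and 1452 CPM. Epicardial and mesothelial markers stood at 250.007 CPM in control cells with Lrp2 and 130 in those without, and at 239 and 119 in the knockout. Endothelial markers lay the other way, at 237 and 604 CPM in the control and 241 and 1297 in the knockout. Haematopoietic markers in the knockout stood at 73.9 CPM with Lrp2 and 482 without, and pluripotent markers at 113 and 346, while in the control pluripotent markers stood at 93.3 and 50.1. Cardiomyocyte markers stood at 1242 CPM with Lrp2 and 3750 without in the control, and at 219.9 and 215 in the knockout. The cells with Lrp2 were also deeper, and the part of these cell types and of depth in the Lrp2 levels was not tested. Removing every cell with a UMI of Ttr, Spink1, Rbp4, Apob or Apom, which was done after the data were seen, left 4177 and 6728 cells with Lrp2 at 17.5 and 97.6 CPM. The Lrp2 difference was as large without them.

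Lrp2 has a long transcript, and longer genes had higher ratios in these libraries. Outside the endoderm-like cluster the rank correlation across 10257 genes was 0.450 between log2 ratio and transcript length, and it was -0.275 with GC content. Genes are not independent replicates, so these describe the 2 libraries. The Lrp2 transcript has 15460 bases. Among 277 genes of at least 10000 bases, whose median log2 ratio was 0.39, Lrp2 ranked 2. Nothing is read from that rank, since the ratio behind it largely repeats the contrast that chose the gene. After subtracting a trend on length and GC, the log2 ratio was 1.88 for Lrp2 and 0.46 for Dab2, in place of 2.38 and 0.72. With cardiomyocyte-like cells also left out, the rank correlation with length was 0.536. There the corrected values were 1.12 for Lrp2 and 0.14 for Dab2, in place of 1.68 and 0.42. In endoderm-like cells the corrected values were 1.61 for Lrp2, 0.65 for Dab2, 0.25 for Cubn, with 11262 bases, and 1.09 for Amn, with 1701. The correction thus lowered the value of Cubn, a long transcript, and raised that of Amn, a short one.

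**Figure D4:**
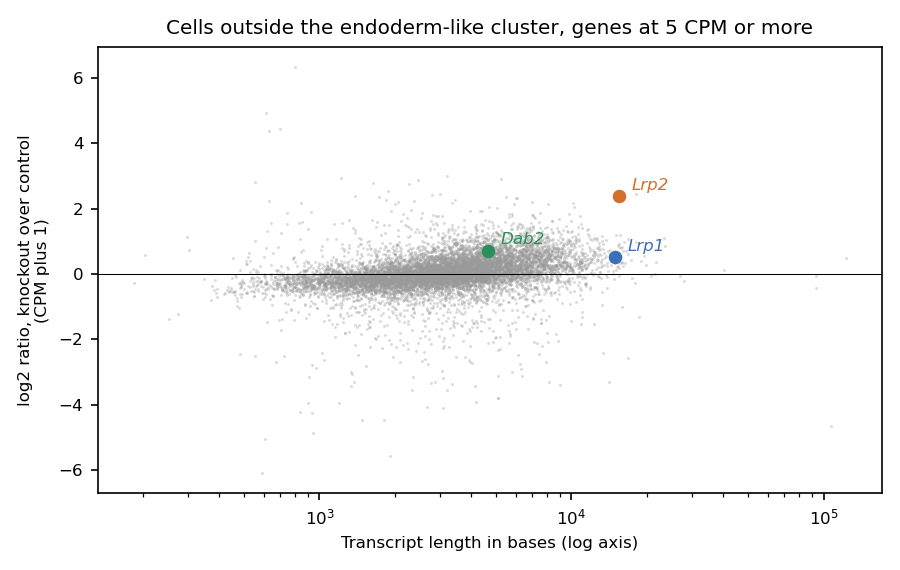
Log2 ratio of knockout to control (CPM plus 1) against transcript length (log axis) for genes at 5 CPM or more in either library, in cells outside the endoderm-like cluster. Lrp2, chosen by a near copy of this contrast, is at 2.38, above Lrp1, a relative of similar length. Dab2 at 0.72 lies within the cloud of points.

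Genes of the same receptor family were set beside Lrp2 over all cells. That contrast chose Lrp2, so its distance from them is not read. Of 13 genes in a list of the LDL receptor family without Lrp2, 11 were at 5 CPM or more over all cells, 0 were past 2-fold in either direction, and the median log2 ratio was 0.06, against 0.02 over all genes. Lrp1, a broad scavenger receptor, stood at 45.8 and 65.2 CPM, and Lrp6, a Wnt co-receptor, at 51.8 and 75.4. In endoderm-like cells 9 were measured, again 0 past 2-fold, with a median of -0.24. Without endoderm-like and cardiomyocyte-like cells 1 of 11 was past 2-fold upward and 0 were past it downward. Of all genes, 3.7% lay past 2-fold upward over all cells, 4.03% in endoderm-like cells and 2.88% in that last set. Downward the shares were 2.91%, 3.06% and 1.46%. With so few family genes nothing is read from these counts.

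Adaptors and coat proteins of clathrin endocytosis were near the general level, with a median log2 ratio of 0.18 for 27 of 28 genes. Only Myo6, the motor myosin VI that binds DAB2, was past 2-fold, at 29.4 and 62.4 CPM, and 0 were lower. That is 1 of 27, against the 3.7% of all genes past 2-fold upward. Outside endoderm-like and cardiomyocyte-like cells 0 of 27 lay past 2-fold, with Myo6 at 30.4 and 53.5 CPM. Cltc, the clathrin heavy chain, stood at 168 and 298 CPM and Eps15, a coated pit protein, at 22.6 and 43.8, while the clathrin light chain Clta stood at 414 in both. In endoderm-like cells 3 of 27 were past 2-fold upward (Myo6, Cltc and Fcho2), with a median of 0.30. Of all genes there, 4.03% lay past 2-fold upward. The 18 lysosomal genes, downstream of uptake, had a median of 0.26 and 0 past 2-fold. Lamp2, a lysosomal membrane protein, stood at 98.1 and 178 CPM and the protease gene Ctsl at 406 and 440.

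Ligands of megalin and cubilin went both ways. Of 16, 9 were measured, with a median log2 ratio of -0.51. Apob, the apolipoprotein of LDL, stood at 5.70 and 19.97 CPM, and Apoa1, the apolipoprotein of HDL, at 6.79 and 1.72. Within endoderm-like cells Apob stood at 183 and 579 CPM, and Apoa1, Shh and Lpl were at least 2-fold lower, 3 of 11 measured, where 3.06% of all genes lay past 2-fold downward. Of 12 visceral endoderm transcription factors, 4 were measured over all cells. Gata4, at 137 and 40.4 CPM, and Gata6, at 396 and 190, were at least 2-fold lower in the knockout. Of all genes, 2.91% lay past 2-fold downward. Without endoderm-like and cardiomyocyte-like cells, where 1.46% of genes lay past 2-fold downward, Gata4 stood at 94.9 and 37.6 CPM, Sox17 at 15.4 and 6.80 and Gata6 at 279.6 and 192, so that Gata6 was no longer past 2-fold. In endoderm-like cells 10 were measured, with Eomes at least 2-fold higher and Foxa1 and Hhex at least 2-fold lower. Of all genes there, 4.03% lay past 2-fold upward and 3.06% downward.

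The remaining lists cover places where Lrp2 acts outside endoderm. Of 16 Hedgehog pathway genes 10 were measured, with a median log2 ratio of 0.42. Disp1, which releases Hedgehog ligand, was past 2-fold, at 6.02 and 13.4 CPM. That is 1 of 10, where 3.7% of all genes lay past 2-fold upward. The co-receptor Cdon stood at 11.4 and 23.7 CPM, and the receptor Ptch1 at 50.7 and 76.2. Without endoderm-like and cardiomyocyte-like cells 0 of 10 lay past 2-fold, with a median of 0.24 and Disp1 at 7.08 and 13.7 CPM. Of all genes in that set, 2.88% lay past 2-fold upward. In endoderm-like cells the median was -0.35, with Shh, 1 of 10, past 2-fold downward, against 3.06% of all genes. Of 16 second heart field genes 10 were measured, with a median of -1.44. Fgf10 was at least 2-fold higher, and Isl1, Mef2c, Hoxb1, Foxc2 and Nkx2-5 were at least 2-fold lower. These are 1 and 5 of 10, where 3.7% of all genes lay past 2-fold upward and 2.91% downward. Mef2c, a muscle transcription factor, stood at 292 and 38.2 CPM. Without endoderm-like and cardiomyocyte-like cells 9 were measured, with a median of -0.53. Fgf10 was past 2-fold upward and Mef2c, Hoxb1 and Foxc2 past 2-fold downward, or 1 and 3 of 9. Of all genes in that set, 2.88% lay past 2-fold upward and 1.46% downward.

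**Figure D5:**
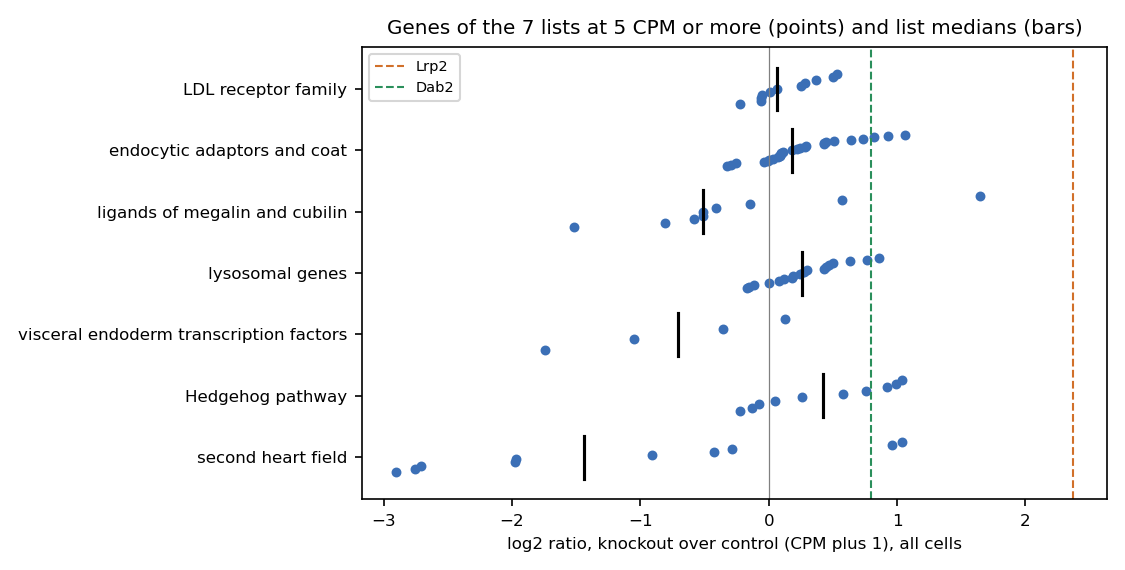
Log2 ratio of knockout to control over all cells (CPM plus 1) for the genes of 7 lists at 5 CPM or more in either library, with points for genes and black bars for list medians. Dashed lines mark Dab2 at 0.80 and Lrp2 at 2.37, and no listed gene reaches the Lrp2 line. Lrp2 was chosen by its ratio in this contrast, so that distance is not read.

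The pattern of each gene over 18 cluster by library sums of at least 50 cells was compared with those of 8262 genes by Pearson correlation of log2(CPM + 1). The sums share 2 libraries, so the values are descriptions. The genes most like Lrp2 were Arl4c (0.95), Arhgef26 (0.95), Ndrg1 (0.94), Igfbp2 (0.94) and Tns3 (0.94), and the same 5 led without the endoderm-like sums. Igfbp2, which encodes an IGF-binding protein, ranged from 8.02 to 731 CPM over the sums. For Dab2 they were Zdhhc9, Lxn, Txndc12, Dennd5b and Asah1 (0.94 to 0.89), and without the endoderm-like sums Sparc led at 0.95. For Cubn they were Dnah11, Lgals2, Klb, Ihh and Hnf4a (all 0.99), and for Amn Tfcp2l1, Atp6v0b, Cystm1, Cldn6 and Card19 (0.97 to 0.96). Among the 4 genes over all 18 sums, Cubn and Amn were alike at 0.88, Cubn and Dab2 at 0.81 and Amn and Dab2 at 0.48. Lrp2 lay lower, at 0.31 with Dab2, 0.04 with Cubn and -0.07 with Amn. Without the endoderm-like sums Dab2 stood at 0.43 with Lrp2, 0.45 with Cubn and -0.82 with Amn. Lrp2 there stood at -0.02 with Cubn and -0.26 with Amn. Cubn and Amn had few UMIs in those sums.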

How the data were processed

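Droplet single-cell RNA sequencing gave 1 library per group, on day 6. The matrices the authors deposited give raw counts of UMIs for each gene in each barcode, before any choice of cells, and were written by Cell Ranger 4, per the file headers. Cell Ranger, R 4.1.1 and the build GRCm39 (mm39) are named per the submitters' processing notes. Library totals were 308465930 UMIs (control) and 357324373 UMIs (knockout), and the cells kept held 94.8% and 96.0% of them. The mitochondrial limit removed 24 and 50 barcodes.

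The 4 genes, the gene lists and the cell type markers were chosen with earlier results of these data known.

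UMIs were summed per library and set of cells and divided by the sum over all genes (CPM). Log2 ratios used CPM plus 1. Levels carry exact Poisson intervals, ratios exact conditional intervals and shares exact Clopper-Pearson intervals, all at 95% and for counting error only. A list gene was called measured where 1 library or both had 5 CPM or more of it. Clustering (scanpy 1.11.5, leidenalg 0.10.2) used 2000 variable genes, less the 4 genes, Zbtb16 and mitochondrial genes, 30 principal components, 15 neighbours and resolution 1, without integration. Cluster names required 3 or more markers of 1 list among the 10 leading genes. Scrublet marked 0% and 0.0106% of cells as doublets, far below the expected 6%, so the caller had not worked and no cell was removed for it. Transcript length and GC content came from GENCODE M21 on GRCm38, joined on gene identifiers, which covered 99.97% of the genes tested over all cells. Corrections used lowess trends (statsmodels 0.14.6).

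Named genes were the 4 genes and Zbtb16, up to 3 genes of each list by mean CPM and 2 by size of log2 ratio, and the 5 genes most alike to each of the 4 genes by correlation, among genes at 20 CPM or more in at least 1 sum. List genes past 2-fold, other than those, and Sparc were named after their values were seen. The method was tested on simulated data. Alternatives covered the UMI and mitochondrial limits, the prior, scaling with edgeR 4.0.16 (TMM), equal weight per cell, the length and GC correction, the definition of the endoderm-like class, resolution, doublet scores, thinning, list filters and the correlation. No proteins are printed, and 1 gene that the naming rule picks is not reported here.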

Additional observations from a re-analysis of the deposited data

Results flagged for a closer look

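Cubn was lower in the knockout library outside endoderm-like and cardiomyocyte-like cells, with a ratio of 0.666 (0.473 to 0.944), while it was higher in the knockout's endoderm-like cells, with a ratio of 1.74 (1.48 to 2.06). It drew attention because the ratio points opposite ways in 2 sets of cells from the same libraries. In endothelial-like cells the Cubn ratio was 0.344 (0.108 to 0.954), from 14 control and 6 knockout UMIs, again opposite to endoderm-like cells. Neither difference was tested, since each library is 1 sample. The endoderm-like log2 ratio of Cubn was 0.78 in the main run. It was 0.11 with a mitochondrial limit of 5% and 0.25 after the length and GC correction. The intervals of the shares of thinned endoderm-like cells with Cubn overlapped between the libraries. The levels outside the endoderm-like cluster lay below those of free RNA in the same libraries.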

How the results depend on the processing

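No paired analysis was possible because there was a single library on each side, so nothing was tested. Of 160 alternative values, 91 stayed the same and 69 moved. For most values, moving meant leaving the counting error of the main value. For counts of listed genes and of shared most alike genes, it meant a change of more than 1.5-fold. The direction of Lrp2 and Dab2 did not change in any alternative run.

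For all cells, log2 ratios at a minimum of 30000 UMIs were 2.32 (Lrp2), 0.52 (Cubn) and 0.48 (Amn). At a mitochondrial limit of 5% they were 0.62 (Dab2), -0.30 (Cubn) and -0.063 (Amn), so Cubn and Amn changed direction there. With a prior of 0.1 CPM they were 2.43 (Lrp2), 0.68 (Cubn) and 0.65 (Amn). With the length and GC correction they were 1.87 (Lrp2) and 0.53 (Dab2), and with equal weight per cell 2.52 (Lrp2), 0.84 (Dab2) and 0.11 (Amn).

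Outside endoderm-like cells, 30000 UMIs gave 2.33 (Lrp2), 0.68 (Dab2) and 0.085 (Amn), and the 5% limit 0.70 (Dab2) and 0.089 (Amn). The prior of 0.1 CPM gave 2.44 (Lrp2), the correction 1.88 (Lrp2) and 0.46 (Dab2), and equal weight 2.53 (Lrp2), 0.81 (Dab2) and -0.11 (Amn). Without cardiomyocyte-like clusters the values were 1.68, 0.42, -0.14 (Cubn) and 0.085 (Amn). Cells of 15000 to 30000 UMIs, added after seeing the data, gave 3.23, 1.15, 0.17 (Cubn) and -0.34 (Amn), with Lrp2 at 7.79 and 81.6 CPM. A class set by 2000 CPM of endoderm markers took in 1857 control and 6234 knockout cells and so does not separate endoderm; the values outside it were 2.81 (Lrp2), 0.60 (Dab2) and 0.15 (Amn), and inside it 1.61 (Lrp2), 0.49 (Dab2), 0.0017 (Cubn) and 0.047 (Amn).

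In endoderm-like cells the 5% limit gave 1.04 (Dab2), 0.11 (Cubn) and 0.33 (Amn), the correction 1.61 (Lrp2), 0.65 (Dab2) and 0.25 (Cubn), equal weight 0.76 (Dab2) and 0.47 (Amn), and removal of the top 6% of doublet scores 0.91 (Dab2).

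The difference in the share of cells with Lrp2, 48.0 percentage points, was 43.7 when thinned to 15000 UMIs, 41.4 unthinned and 43.7 for at least 2 UMIs. For Dab2, 15.05 became 18.9, 9.97 and 23.8, and for Amn the unthinned difference was -0.28. The highest Lrp2 cluster reached 156 CPM at resolution 2. Without the filter on low values, list medians were -0.11 (ligands), 0.043 (visceral endoderm factors), -0.0081 (Hedgehog) and -0.67 (second heart field), and with TMM scaling, a shift of 0.019, lysosomal genes were at 0.28. At 1.5-fold 15 listed genes were higher, against 4. By Spearman correlation 1 of the 5 most alike genes was shared for Lrp2, Dab2 and Amn, and 0 for Cubn; without endoderm-like sums 0 were shared for Lrp2 and 1 for Dab2. The cause of these changes was not tested. Depth limits Cubn and Amn outside endoderm-like cells, with 61 to 88 UMIs per library.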

Other observations

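Within the control library, cells outside the endoderm-like cluster were divided by whether a Zbtb16 UMI was counted after thinning. Lrp2 had a UMI in 24.1% (22.2 to 26.0) of 2061 cells with Zbtb16 and in 24.3% (22.8 to 25.8) of 3355 cells without. In control cluster 3 the shares were 42.7% and 43.4%, and in control cluster 8 they were 48.9% and 46.5%. The intervals overlap in each set. Dab2 was found in 70.3% and 69.7% of the same cells outside the endoderm-like cluster. Zbtb16 counts are sparse per cell, so a cell without a UMI can still hold its RNA. These shares came from a separate thinning draw.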
